A study of Homo sapiens with 9 samples.

Results

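Chemokines are small secreted proteins that guide leukocytes, and keratinocytes make many of them in injured or inflamed skin. The genes described here are 10 keratinocyte chemokine genes, chosen by name: CXCL1, CXCL2, CXCL3, CXCL8, CXCL10, CXCL11, CXCL14, CXCL16, CCL5 and CCL20. They belong to 16199 genes with an entry in at least 1 library. All groups were HaCaT cells, an immortalized human keratinocyte line labelled as wild type and treated after reaching confluence. The untreated cells were kept in serum-free medium, and the others received EGF (10 nM for 24 h) or bleogen pB1 (1 µM for 24 h), a peptide of cactus origin that acts as an agonist of the EGF receptor. Each group had 3 libraries of polyadenylated RNA. The labels do not say that the 3 came from separate cultures, so the p-values measure the spread between these libraries, which may be technical.

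As background, CXCL1, CXCL2, CXCL3 and CXCL8 (interleukin-8) carry the ELR motif and attract neutrophils through the receptors CXCR1 and CXCR2. CXCL10 and CXCL11 attract activated T cells through CXCR3, and interferons are classic inducers of both. CCL5 (RANTES) attracts T cells and monocytes, and it responds to NF-κB as well as to interferon regulatory factors. CXCL16 is made as a membrane protein that the protease ADAM10 can release, CCL20 is the ligand of CCR6, and CXCL14 is a chemokine of normal epithelium. In keratinocytes, signalling by the EGF receptor is known to modify chemokine expression.

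The 4 ELR chemokine genes among these 10 lie within a cluster on chromosome 4 of GRCh38. By GENCODE release 44, CXCL8 spans chr4:73740519-73743716 and CXCL1 chr4:73869393-73871308 on the plus strand, and CXCL3 spans chr4:74036589-74038807 and CXCL2 chr4:74097040-74099196 on the minus strand. The distance from the end of CXCL8 to the start of CXCL2 is 353.3 kb. CXCL10 (chr4:76021118-76023497) and CXCL11 (chr4:76033682-76041415), both on the minus strand, follow 1.92 Mb beyond CXCL2 and are 10.2 kb apart. CCL5 (chr17:35871491-35880793, minus strand) and CXCL16 (chr17:4733533-4739928, minus strand) lie on chromosome 17. CXCL14 (chr5:135570679-135579279, minus strand) and CCL20 (chr2:227805739-227817564, plus strand) lie elsewhere.

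Stretches upstream of the RefSeq start of 6 of these genes are shown because they hold matches to the DNA motifs through which NF-κB, AP-1 and the interferon-activated factors bind, 3 routes of chemokine induction whose genes are described further on. They were taken from the RefSeq windows of GRCh38.p14, which matched 8 of the 10 genes (not CXCL16 and CCL5), and are written 5′ to 3′ on the strand of the gene. Capitals mark a kB core (GGANNTTCC), an AP-1 site (TGANTCA) or, in CXCL10 alone, an interferon-stimulated response element (GAAA, any 2 bases, GAAA). The windows are chr4:73869293-73869342 for CXCL1, chr4:74099246-74099295 for CXCL2, chr4:74038740-74038789 for CXCL3, chr4:73740419-73740498 for CXCL8, chr4:76023658-76023727 for CXCL10 and chr4:76036121-76036170 for CXCL11. The windows of CXCL3 and CXCL11 lie inside the gene spans given above, because GENCODE lists longer transcripts that begin further upstream than the RefSeq start. The CXCL3 window is within an exon of such a transcript, for which no coding part is defined, and the CXCL11 window is within an intron.
CXCL1: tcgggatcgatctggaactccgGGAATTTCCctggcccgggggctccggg
CXCL2: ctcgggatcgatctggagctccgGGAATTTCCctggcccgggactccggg
CXCL3: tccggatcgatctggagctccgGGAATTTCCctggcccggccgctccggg
CXCL8: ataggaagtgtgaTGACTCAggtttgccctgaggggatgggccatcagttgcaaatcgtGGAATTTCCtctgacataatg
CXCL10: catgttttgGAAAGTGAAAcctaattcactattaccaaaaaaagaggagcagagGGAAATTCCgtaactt
CXCL11: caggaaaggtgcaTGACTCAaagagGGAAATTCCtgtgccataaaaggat

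The windows of CXCL1, CXCL2 and CXCL3 were close copies. CXCL1 and CXCL3 had 46 of 50 bases in common, CXCL1 and CXCL2 43 of 49 aligned bases, and CXCL2 and CXCL3 42 of 49. On either strand of the 250 bases upstream, the kB core was found in 6 of the 8 chemokine genes, and in 3.88% of the 27305 windows in the table. The AP-1 site was found in CXCL8, CXCL11 and CXCL14, and in 6.60% of all windows. The interferon-stimulated element was found in CXCL10, and in 3.07% of all windows. No 2 of the marked motifs overlap. A match is a description of the letters and not a measured binding site.

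**Figure D1:**
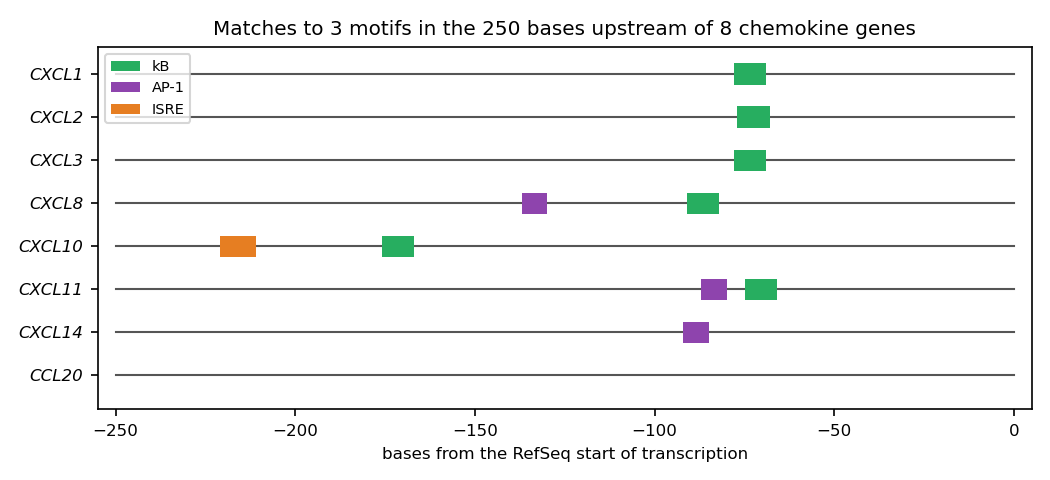
Position of the matches to the kB core, the AP-1 site and the interferon-stimulated response element (ISRE), in bases from the RefSeq start of transcription, for the 8 chemokine genes with a window. A kB core is present in 6 genes, within 100 bases of the start in CXCL1, CXCL2, CXCL3, CXCL8 and CXCL11 and further upstream in CXCL10, and CCL20 has no match.

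The files give for each gene an expected count, an estimate that shares reads among the transcripts they fit, and an FPKM value, a count scaled for gene length and depth. The expected counts summed to between 20288417 and 21320994 per library. Thus 3 counts, taken as the smallest level seen, equal 0.141 to 0.148 CPM (counts scaled to library size). The CPM levels of genes are also scaled with TMM factors, which this limit and the count filter given further on leave out. This limit covers counting error only. All 8 keratinocyte markers, among them KRT5 and KRT14, were present in every group, with a summed level of 10815 to 11904 CPM in untreated, 7606 to 8135 CPM with EGF and 10459 to 12474 CPM with bleogen pB1. Of 10 leukocyte markers 7 were listed. Their values are given at the end with those of other cell types, as are the changes of single keratinocyte markers.

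In untreated HaCaT cells, 2 of the 10 chemokines made up nearly all of the transcripts of these 10 genes. On the per-length FPKM scale, CCL5 was highest (41.2 ± 6.72, SD, n = 3), followed by CXCL16 (24.3 ± 1.96). CXCL1 (1.10 ± 0.0693), CXCL10 (0.933 ± 0.258), CXCL11 (0.403 ± 0.156), CXCL8 (0.300 ± 0.180) and CXCL3 (0.0900 ± 0.0900) were far lower. The libraries of CCL5 and CXCL16 did not overlap, nor did those of CXCL16 and CXCL1 or of CXCL10 and CXCL11, whereas CXCL1 overlapped CXCL10, CXCL11 overlapped CXCL8 and CXCL8 overlapped CXCL3. CCL5 and CXCL16 together held 95.1 to 96.2% of the summed FPKM of the 10 genes. CXCL2 and CCL20 had no count in the untreated libraries, which allows up to 0.148 CPM in the shallowest of them, and CXCL14 was listed in none of the 9 libraries.

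EGF changed all 5 chemokines that had enough counts to be tested, and not in the same direction. The neutrophil chemokines CXCL8 and CXCL1 were upregulated, and CXCL10, CCL5 and CXCL16 were downregulated. A gene was called a DEG at an adjusted p of at most 0.05 (edgeR quasi-likelihood test, Benjamini-Hochberg over 12394 genes) and |log2FC| of at least 0.5. By this rule (log2FC, the log2 fold change) 15.1% of all tested genes were upregulated with EGF and 21.8% downregulated, as compared to the untreated group. The 2 upregulated and 3 downregulated chemokines should be read against these shares. The median log2 fold change was −1.62 over the 5 and −0.01 over all tested genes. Each of the 5 was above the count filter (0.485 CPM in 3 libraries) in at least 4 libraries not treated with EGF. CXCL10 was above it in 3 untreated, 3 bleogen pB1 and 0 EGF libraries, so it was tested only through the groups where it is higher. CXCL2, CXCL3, CXCL11 and CCL20 did not pass the filter.

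CXCL8, the main neutrophil attractant of the group, showed the largest rise. Its expected counts were 4, 16 and 10 in the untreated libraries, 47, 47 and 66 with EGF, and 11, 18 and 7 with bleogen pB1. All 3 EGF libraries lay above all others, and the untreated and bleogen pB1 libraries overlapped. The level rose from 0.485 ± 0.297 to 2.63 ± 0.473 CPM (mean ± SD, n = 3). The log2FC was 2.43 (SE 0.39, 95% interval 1.59 to 3.27, edgeR adjusted p = 0.00012), or 5.39-fold. The deposited length of CXCL8 differed between libraries, from 1120.07 to 1718 bases, so its FPKM carries this difference too.

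CXCL1, a ligand of CXCR2, rose less far. Its counts were 26, 23 and 26 in untreated, 45, 58 and 55 with EGF and 17, 28 and 20 with bleogen pB1. The EGF libraries again did not overlap the others. The level rose from 1.21 ± 0.0682 to 2.61 ± 0.337 CPM with a log2FC of 1.10 (SE 0.23, 95% interval 0.60 to 1.60, edgeR adjusted p = 0.00096), or 2.15-fold. Of the 50-base words in the CXCL1 transcript, 5.3% also occur in CXCL2 or CXCL3, so a small share of its reads could fit either. The expected counts of CXCL1, CXCL2 and CXCL3 were whole numbers in all libraries, so no sharing of reads by estimate was seen.

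CXCL3 and CXCL2, the other ELR chemokines among the 10, were near the detection limit. CXCL3 had 0, 4 and 2 counts in untreated, 4, 8 and 6 with EGF and 6, 6 and 2 with bleogen pB1. Its lowest EGF library tied with its highest untreated library at 4 counts. With no count filter the log2 fold change under EGF was 1.56 (SE 0.78, edgeR adjusted p = 0.11), which did not pass. CXCL2 had no counts in untreated libraries, 1, 0 and 2 with EGF, and 0, 4 and 1 with bleogen pB1, so no change was detectable at this depth.

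CXCL10, the interferon-inducible ligand of CXCR3, had the largest fall of the 5 tested. Its counts were 29, 19 and 18 in untreated, 3, 5 and 5 with EGF and 13, 13 and 13 with bleogen pB1. The EGF counts are close to the 3 counts taken as the smallest level seen, so the size of the fall rests on few counts. The 3 groups did not overlap one another, with bleogen pB1 between untreated and EGF, and how many of all genes do so was not counted. With EGF the level went from 1.06 ± 0.292 to 0.214 ± 0.0559 CPM, a log2FC of −2.28 (SE 0.37, 95% interval −3.08 to −1.48, edgeR adjusted p = 0.00014), or 4.85-fold lower. Fewer cells expressing a gene and less RNA per cell cannot be told apart in such bulk libraries.

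CXCL11, the neighbour of CXCL10 on chromosome 4, was lower on average in both treated groups but did not pass the count filter. Its counts were 12, 8 and 18 in untreated, 7, 8 and 2 with EGF and 5, 6 and 10 with bleogen pB1, and the groups overlapped. With no filter, the log2 fold change under EGF was −1.10 (SE 0.54, edgeR adjusted p = 0.096). Without untreated replicate 2 it was −1.34 (edgeR adjusted p = 0.046), without EGF replicate 2 it was −1.44 (edgeR adjusted p = 0.047), and without EGF replicate 3, the lowest library, it was −0.69 (edgeR adjusted p = 0.24). It was also not called without EGF replicate 1 (edgeR adjusted p = 0.073) or without any 1 bleogen pB1 replicate (edgeR adjusted p = 0.073 to 0.078). With a library left out the filter asks for 2 libraries, and CXCL11 then passed it only through untreated ones, where it is higher. Whether CXCL11 is called thus rests on single libraries, and the 2 calls are no support for a fall.

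CCL5, the most abundant of these transcripts per length, had expected counts of 1124, 1015 and 812 in untreated, 208, 412 and 283 with EGF and 1101, 789 and 916 with bleogen pB1. Every EGF library lay below every other library. The level fell from 47.6 ± 7.95 to 14.9 ± 5.28 CPM with a log2FC of −1.67 (SE 0.21, 95% interval −2.13 to −1.22, edgeR adjusted p = 1.5e-05), or 3.19-fold lower. CCL5 had fractional expected counts in all 9 libraries, and 18.5% of the 50-base words in its transcript occur in transcripts of other genes, so part of its counts was shared out by estimate.

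CXCL16 fell by nearly the same factor as CCL5. Its counts were 1186, 1104 and 997 in untreated, 292, 410 and 341 with EGF and 1021, 794 and 997 with bleogen pB1, and the EGF libraries were again the lowest. The level went from 53.0 ± 4.90 to 17.2 ± 3.10 CPM with a log2FC of −1.62 (SE 0.13, 95% interval −1.91 to −1.33, edgeR adjusted p = 4.8e-07), or 3.08-fold lower. The exons of CXCL16 overlap those of MED11 and ZMYND15 on the other strand, and the sources used here do not say whether reads were counted by strand. MED11 had 380 to 448 counts in untreated and 265 to 269 in EGF-treated libraries, and ZMYND15 29 to 47 and 3 to 12 counts. Both were downregulated with EGF, with a log2FC of −0.61 for MED11 (edgeR adjusted p = 0.00014) and of −2.42 for ZMYND15 (edgeR adjusted p = 0.00045), and the MED11 counts with EGF were close to the lowest CXCL16 count. Their part in the CXCL16 counts was not tested. Both genes are named after their values were seen.

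CCL5 and CXCL16 ranked the libraries alike within each group. The untreated libraries were ordered 1, 2, 3 from high to low for both genes, the EGF libraries 2, 3, 1 and the bleogen pB1 libraries 1, 3, 2. The counts of STAT2, IRF7 and IRF9, described further on, had the same order, so it is not particular to this pair. The ratio of CCL5 to CXCL16 in FPKM ranged from 1.53 to 1.81 in untreated, from 1.34 to 1.92 with EGF and from 1.75 to 2.04 with bleogen pB1, and the ranges of the untreated and the EGF-treated groups overlapped. CCL20 had a single count, in bleogen pB1 replicate 1, and was not detectable in the other 8 libraries.

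**Figure D2:**
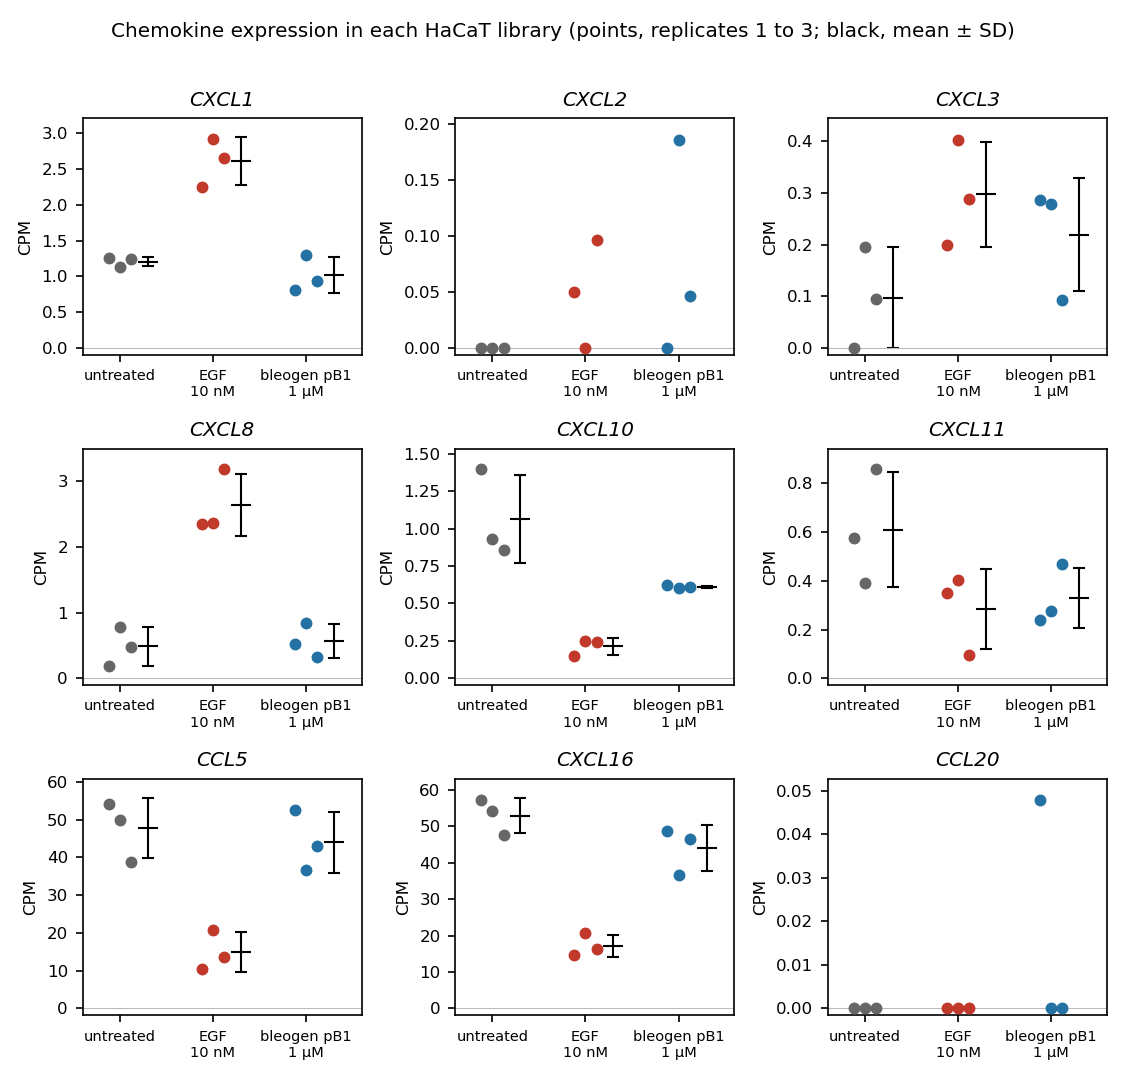
CPM (vertical axis, linear, a separate scale for each gene) of the 9 listed chemokines in each untreated, EGF-treated and bleogen pB1-treated library. Points are replicates 1 to 3 from left to right and black bars are mean ± SD (n = 3), left out for CXCL2 and CCL20, which had at most 4 counts. The EGF libraries stand above the others for CXCL1 and CXCL8 and below them for CXCL10, CCL5 and CXCL16.

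These opposite changes altered the make-up of the transcripts of the 10 chemokines, other chemokines not counted. The summed FPKM of the 10 genes was 68.4 ± 8.66 in untreated, 24.4 ± 5.78 in EGF-treated and 61.5 ± 9.41 with bleogen pB1 (mean ± SD, n = 3). CCL5 and CXCL16 held 78.0 to 84.6% of it with EGF and 94.5 to 96.8% with bleogen pB1. The share of CXCL1 and CXCL8 was 1.66 to 2.45% in untreated, 12.8 to 19.1% with EGF and 1.74 to 3.32% with bleogen pB1. In FPKM order the EGF-treated cells had CCL5 (12.3 ± 4.32), CXCL16 (7.47 ± 1.27), CXCL1 (2.25 ± 0.287), CXCL8 (1.71 ± 0.320), CXCL3 (0.260 ± 0.0854), CXCL10 (0.180 ± 0.0436) and CXCL11 (0.177 ± 0.102). In this order CCL5 overlapped CXCL16, CXCL1 overlapped CXCL8, and CXCL3, CXCL10 and CXCL11 overlapped in turn.

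The exact permutation test over single libraries gave p = 0.1 (two-sided) for each of the 5 genes under EGF, the smallest value that 3 against 3 libraries can give. CXCL3, which did not pass the count filter, also had 0.1 in this permutation test, so the value does not set the 5 apart. How many of all genes reach it was not counted.

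With bleogen pB1 none of the 5 tested chemokines was called a DEG as compared to the untreated group, by edgeR or by DESeq2. Among all tested genes 0.218% were upregulated and 1.26% downregulated. Of the 5, 1 (CXCL10) had an unadjusted p under 0.05. Its level was 0.611 ± 0.00913 CPM, against 1.06 ± 0.292 CPM in untreated cells, a log2FC of −0.79 (SE 0.30, 95% interval −1.45 to −0.14, unadjusted p = 0.021, edgeR adjusted p = 0.15). All 3 bleogen pB1 libraries had fewer CXCL10 counts than every untreated library, with an exact permutation p of 0.1. How many of all genes separate in this way was not counted. The 3 bleogen pB1 counts were equal, which is less spread than counting error alone would give, so this SD understates the uncertainty.

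For the other 4 tested chemokines the bleogen pB1 and untreated libraries overlapped. CXCL16 had a log2FC of −0.27 (95% interval −0.53 to 0.00, edgeR adjusted p = 0.23) and CCL5 of −0.11 (95% interval −0.53 to 0.30, edgeR adjusted p = 0.77). CXCL1 had −0.25 (95% interval −0.81 to 0.31, edgeR adjusted p = 0.61) and CXCL8 0.22 (95% interval −0.81 to 1.25, edgeR adjusted p = 0.83). The intervals exclude changes of the size seen with EGF, but those of CXCL1, CCL5 and CXCL16 reach past −0.5 and that of CXCL8 past 0.5 in either direction. The median log2 fold change of the 5 was −0.25, against −0.00 over all tested genes.

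**Figure D3:**
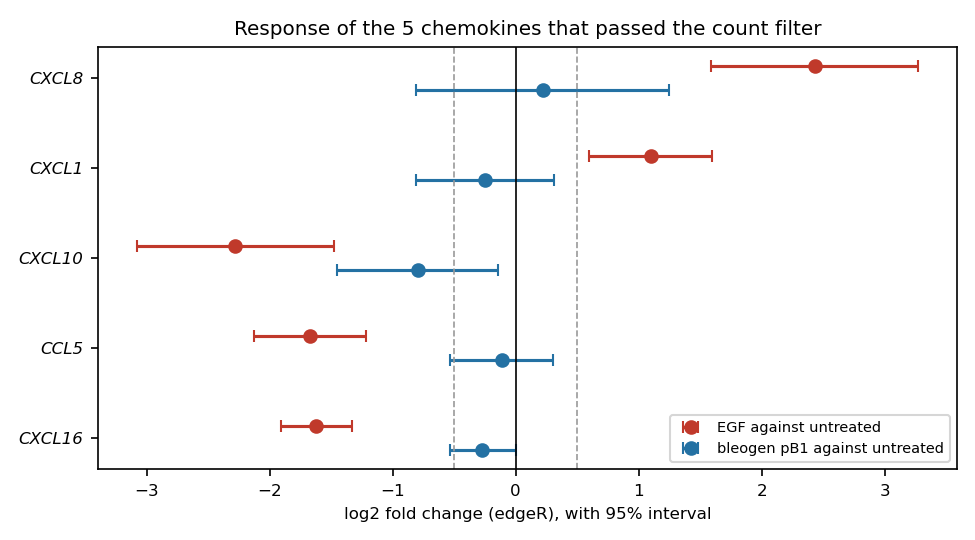
Log2 fold change against the untreated group (horizontal axis) with the 95% interval from edgeR, for the 5 chemokines that passed the count filter, with EGF in red and bleogen pB1 in blue. Dashed lines mark a log2FC of 0.5 in either direction, and every EGF interval lies beyond them, whereas the bleogen pB1 intervals lie around 0 except that of CXCL10, which runs from −1.45 to −0.14.

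The direct comparison of EGF with bleogen pB1 sets 10 nM of the former against 1 µM of the latter, so dose and agent cannot be told apart in it. All 5 chemokines differed: CXCL8 by a log2FC of 2.21 (SE 0.38, edgeR adjusted p = 0.00027) and CXCL1 by 1.35 (SE 0.24, edgeR adjusted p = 0.00034) were higher with EGF. CCL5 (−1.56, SE 0.21, edgeR adjusted p = 4.3e-05), CXCL10 (−1.49, SE 0.40, edgeR adjusted p = 0.0069) and CXCL16 (−1.36, SE 0.13, edgeR adjusted p = 3.3e-06) were lower. Among all tested genes 10.8% were higher and 18.0% lower with EGF than with bleogen pB1. This comparison and that with the untreated group share the EGF libraries.

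Genes with the most similar pattern were sought among genes with a mean of at least 50 counts, by Pearson r of log2 CPM over the 9 libraries. They were OSBP (r = 0.992), SEC24D (0.990) and TNFRSF10B (0.989) for CXCL1, and PPP3CC (0.989), ING3 (0.978) and GTF3C6 (0.978) for CXCL8. For CXCL10 they were OCLN (0.990), SLC15A3 (0.989) and ZNF559 (0.987), for CCL5 ULK1 (0.997), RHPN1 (0.997) and NPEPL1 (0.992), and for CXCL16 CLU (0.998), HLA-F (0.997) and LRTOMT (0.997). The 9 points share 3 treatment groups, which alone can give a high r, and by Spearman's rho none of these genes was among the 3 most similar to its chemokine.

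Of the other chemokines with enough counts to be tested, most were lower with EGF. Of 34 further chemokine genes 14 were listed and 6 were tested, of which 0 were upregulated and 5 downregulated with EGF, with a median log2 fold change of −1.97 (the same with CCL28, which had no counts with EGF, at its bound). With bleogen pB1 none of the 6 passed, and 0.18 was the median. CCL22, an attractant of regulatory T cells, had 184, 143 and 135 counts in untreated and 232, 196 and 197 in EGF-treated libraries, a log2FC of 0.47 (edgeR adjusted p = 0.016) that lies under the fold limit. All 5 genes that fell (CCL2, CCL17, CCL26, CCL28 and CX3CL1) averaged under 50 counts. None of the 5 was over the count filter in 3 EGF libraries, so each was tested through the groups where it is higher. The filter thus favoured low genes that fall with EGF, and the direction of these 5 is no evidence about the untested chemokines.

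Few chemokine receptors had counts, with 16 of 23 listed and 3 tested. ACKR3, a scavenging receptor for CXCL12 and CXCL11, fell the most, from 1489, 1483 and 1367 counts in untreated to 88, 52 and 56 in EGF-treated libraries, with 1440, 917 and 1258 in bleogen pB1-treated libraries. Its log2 fold change was −4.43 with EGF (edgeR adjusted p = 2.8e-09) and −0.30 with bleogen pB1 (edgeR adjusted p = 0.26). CCR6, the receptor of CCL20, and CCR10 were tested and not called with either agent.

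The NF-κB pathway, which acts through kB cores such as those shown, was measured in 20 genes. With EGF 10 were upregulated and 2 downregulated, with a median log2 fold change of 0.54. The counts of this and the other lists should be read against the shares of all tested genes. These were 15.1% upregulated and 21.8% downregulated with EGF, and 0.218% and 1.26% with bleogen pB1. The named genes were TNFAIP3, an inhibitor of the pathway (2.49, edgeR adjusted p = 1.2e-08), BCL3, a nuclear cofactor (1.39, edgeR adjusted p = 4.7e-06), the kinase gene CHUK (0.82, edgeR adjusted p = 1.4e-05), the subunit gene NFKB2 (1.45, edgeR adjusted p = 3.1e-05) and TNIP2, a partner of TNFAIP3 (0.67, edgeR adjusted p = 9e-05). TNFAIP3 had 330, 261 and 370 counts in untreated and 1584, 1892 and 1812 in EGF-treated libraries. None of the 20 was called with bleogen pB1, and their median was 0.03.

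Cytokines and receptors upstream of chemokines changed in both directions. Of 30 genes 21 were tested, and 6 were upregulated and 8 downregulated with EGF, with a median log2 fold change of −0.35. IL1B, which encodes the inflammatory cytokine interleukin-1β, rose (1.42, edgeR adjusted p = 1.7e-07), as did the adaptor kinase gene IRAK1 (0.85, edgeR adjusted p = 4.8e-07) and TLR4, a receptor for bacterial lipopolysaccharide (1.21, edgeR adjusted p = 5e-07). TLR3, a receptor for double-stranded RNA (−1.44, edgeR adjusted p = 8.1e-08), and TLR1, a partner of TLR2 (−2.87, edgeR adjusted p = 1.3e-06), fell. None of the 21 was called with bleogen pB1, and their median was −0.06.

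Genes of interferon signalling were the only list in which several genes fell with both agents. Of 23 genes 19 were tested, with 3 up and 6 down under EGF and 4 down under bleogen pB1, and their median log2 fold change was −0.11 and −0.13. STAT2, a mediator of interferon responses, had 5483, 4880 and 4778 counts in untreated, 940, 1309 and 1198 with EGF and 3731, 2897 and 3267 with bleogen pB1. The EGF libraries were the lowest, and the bleogen pB1 libraries lay between them and the untreated ones. Its log2 fold change was −2.10 with EGF (edgeR adjusted p = 2.2e-08) and −0.65 with bleogen pB1 (edgeR adjusted p = 0.0073).

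USP18, a feedback inhibitor of the interferon receptor, had −2.0 with EGF (edgeR adjusted p = 7.5e-09) and −0.58 with bleogen pB1 (edgeR adjusted p = 0.0047). The regulatory factor gene IRF7 had −2.03 (edgeR adjusted p = 1.2e-07) and −0.70 (edgeR adjusted p = 0.012). IRF9, a partner of STAT2, fell with EGF (−1.57, edgeR adjusted p = 5.5e-08) and had −0.40 with bleogen pB1, under the fold limit. Under bleogen pB1, STAT2 and IRF7 lost their call without untreated replicate 1 and without bleogen pB1 replicate 3, which left 2 of the 4, and IRF7 also without bleogen pB1 replicate 2. In limma on log2(FPKM + 1) with no filter, 1 of the 4 was called, and STAT2 (−0.63, limma adjusted p = 0.059), IRF7 (−0.67, limma adjusted p = 0.082) and USP18 (−0.55, limma adjusted p = 0.052) lost their calls. The EGF and bleogen pB1 comparisons share the untreated libraries, so a fall in both is not independent evidence.

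AP-1 and C/EBP factors, which also act on chemokine promoters, were tested in 12 genes, of which 4 rose and 6 fell with EGF and 0 passed with bleogen pB1. FOSL1 rose from 795, 788 and 840 counts in untreated to 9608, 8528 and 8649 in EGF-treated libraries (3.50, edgeR adjusted p = 6.2e-10). JUND (−1.59, edgeR adjusted p = 1.8e-06) and FOSL2 (−0.74, edgeR adjusted p = 1.1e-05) fell, and JUN (0.94, edgeR adjusted p = 2.4e-06) and CEBPG (0.94, edgeR adjusted p = 1.1e-05) rose. The median of the list was −0.16 with EGF and 0.03 with bleogen pB1. FOSL1 had 0.49 with bleogen pB1 (edgeR adjusted p = 0.053), just short of both limits, and it was called with no scaling factors. Without bleogen pB1 replicate 1 there were 3 calls with bleogen pB1, with FOSL1 up and JUND and ATF3 down.

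Among 11 regulators of chemokine mRNA decay, 3 rose and 1 fell with EGF, with a median of 0.41, and none was called with bleogen pB1, with a median of 0.06. Among all tested genes 15.1% were upregulated and 21.8% downregulated with EGF, so calls in this list were not more common than elsewhere. ZFP36, which destabilizes many inflammatory mRNAs, rose by 0.86 on the log2 scale (edgeR adjusted p = 1.2e-06), HNRNPD by 0.50 (edgeR adjusted p = 0.00018) and ZC3H12C by 0.60 (edgeR adjusted p = 0.00031), and ZFP36L2 had −1.06 (edgeR adjusted p = 3.9e-06). Proteases known to cut chemokines were tested in 9 genes of 11, with 3 up and 4 down under EGF. MMP1 (3.03, edgeR adjusted p = 3.8e-08) and CTSL (0.72, edgeR adjusted p = 1.5e-06) rose, and MMP13 (−1.82, edgeR adjusted p = 9.8e-08), MMP12 (−3.55, edgeR adjusted p = 1.5e-07) and ADAM10 (−0.52, edgeR adjusted p = 5.2e-06) fell. Of the 9 proteases, MMP1 was called with bleogen pB1 (1.12, edgeR adjusted p = 0.0068), though not in limma on log2(FPKM + 1) with no filter (0.92, limma adjusted p = 0.051), and the protease medians were −0.16 with EGF and −0.02 with bleogen pB1.

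**Figure D4:**
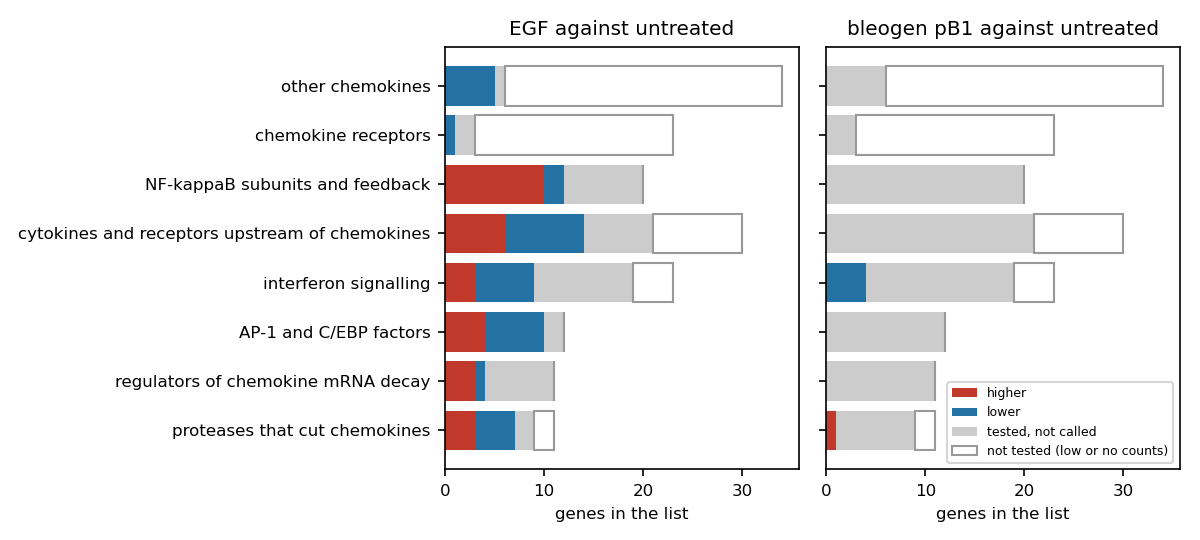
Number of genes (horizontal axis) in each of 8 lists around the chemokines that were higher (red), lower (blue), tested but not called (grey) or not tested (white) with EGF on the left and bleogen pB1 on the right, as compared to the untreated group. With EGF, 10 of 20 NF-κB genes were higher and 5 further chemokines lower, and with bleogen pB1 the calls were 4 interferon signalling genes, lower, and 1 protease gene, higher. Of all tested genes 15.1% were higher and 21.8% lower with EGF, and 0.218% and 1.26% with bleogen pB1.

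Several tested markers of other cell types moved with EGF, and with bleogen pB1 CDH5 alone was called. The summed level of 7 fibroblast markers was 7.62 to 9.31 CPM in untreated, 1.30 to 2.00 CPM in EGF-treated and 6.08 to 9.17 CPM in bleogen pB1-treated libraries. Of these markers 3 were tested, and all 3 were called lower with EGF and none with bleogen pB1: COL1A1 (−1.67), COL3A1 (−2.98) and DCN (−4.86). COL3A1 had 93, 107 and 102 counts in untreated and 12, 14 and 11 in EGF-treated libraries, and PDGFRA was at 0 in the untreated ones.

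The 5 endothelial markers summed to 3.42 to 4.78 CPM in untreated, 0.306 to 0.504 CPM with EGF and 1.16 to 1.91 CPM with bleogen pB1. VWF (−1.94) and CDH5 (−4.70) were called lower with EGF, and CDH5 also with bleogen pB1 (−2.34, edgeR adjusted p = 0.0077), with 49, 43 and 77 counts in untreated, 5, 1 and 0 with EGF and 13, 6 and 15 with bleogen pB1. KDR was at 0 in the untreated libraries.

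The 10 leukocyte markers summed to 13.2 to 14.6 CPM in untreated, 22.7 to 23.2 CPM with EGF and 12.7 to 13 CPM with bleogen pB1. Most of this was CD68, a gene of macrophages with 214 to 428 counts per library, which was called higher with EGF (0.77, edgeR adjusted p = 1.1e-05). ITGAM was also called higher with EGF (1.45, edgeR adjusted p = 0.032), with 7, 11 and 17 counts in untreated and 8, 50 and 36 with EGF, so the groups overlapped. LYZ, with 13 to 39 counts per library, was tested and not called. PTPRC had 0 to 6 counts per library, and CD3D and CD3E at most 1.

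The 5 melanocyte markers summed to 6.72 to 9.13 CPM in untreated, 5.26 to 6.58 CPM with EGF and 6.63 to 7.98 CPM with bleogen pB1, and PMEL was called lower with EGF (−0.80, edgeR adjusted p = 0.04). The keratinocyte markers also changed: of 8 tested, 3 were called higher and 5 lower with EGF. KRT14 had a log2FC of 0.88, KRT5 of −1.12 and KRT1 of −4.08. With bleogen pB1, KRT1 was called higher (0.83, edgeR adjusted p = 0.048) and the other keratinocyte markers were not called. The part of any of the cell type markers in the chemokine results was not tested.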

How the data were processed

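RNA of HaCaT cells was measured in 9 libraries, 3 per group, with groups and replicate numbers taken from the sample titles. The authors had reads mapped to GRCh38.p12 (the counting program is not given in the sources used here) and deposited expected counts per gene, gene lengths in bases and FPKM. The expected counts deposited are not scaled for depth. The authors also deposited FPKM, which is scaled for length and depth. A gene without an entry in a library was counted as 0. The library kit marks strand, but use of the strand in counting is not stated.

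Expected counts were rounded and tested with edgeR 4.0.16 (R 4.3.3): filterByExpr, TMM, 1 coefficient per group, all 9 libraries, glmQLFit and glmQLFTest, Benjamini-Hochberg over 12394 genes, and the study's thresholds. SE and 95% intervals come from the quasi-likelihood F. Alternatives used DESeq2 1.42.0, limma 3.58.1 on log2(FPKM + 1) or log2(FPKM + 0.1), other scaling and filters, each library left out and a replicate block. Same-numbered libraries had deviation correlations of −0.030 to 0.207, against means of −0.049 to −0.014 for different numbers. Values over 0.1 were seen only for bleogen pB1 against untreated (0.207 and 0.113, with −0.030 for replicate 2). The samples share only a number, so they were not taken as pairs, and the replicate block was kept as an alternative. The fits were checked on simulated data, and no 2 replicates agreed within sampling noise. Figures used matplotlib 3.10.9.

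The chemokines and the gene lists were chosen with earlier results of these data known. Named were the 10 chemokines, and from each list up to 5 genes called with EGF (smallest adjusted p, mean of at least 50 counts) and every gene called with bleogen pB1. Of the genes that meet this rule, 1 is not reported here by name and stays in the counts. Other names were chosen after their values were seen. They are CCL22, CCR6, CCR10, MED11, ZMYND15, ATF3, IKBKB, TRAF6, RELA, NFKB1, NFKBIA, the single markers of cell types and the genes of the closing observations. No protein sequences were used here.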

Additional observations from a re-analysis of the deposited data

How the results depend on the processing

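Against untreated, the EGF calls of the chemokines held wherever they were tested, with 51 values under other tools, scalings and filters and 45 with a library left out on the same side of the thresholds. The number of chemokines called against untreated ranged from 5 to 6 with a library left out, stayed 0 with bleogen pB1, and was 5 against bleogen pB1 throughout. The addition was CXCL11, which passed the filter there only through untreated libraries. At least 10 counts in every library left 3 calls with EGF against untreated and 3 against bleogen pB1, because CXCL8 and CXCL10 were then not tested, and limma with the FPKM filter gave 4, because CXCL10 was not tested. In limma on log2(FPKM + 1) with no filter, CXCL10 differed between EGF and bleogen pB1 by −0.39 (adjusted p = 0.0046), under the fold limit, on a scale that understates low genes. With a library left out, CXCL8 under bleogen pB1 ranged from −0.19 to 0.74 and CCL5 from −0.26 to 0.00. CXCL8 changed sign to −0.16 without untreated replicate 1 and to −0.19 without bleogen pB1 replicate 2, and CCL5 was at 0.00 without bleogen pB1 replicate 2. Neither was called in any fit. Upper-quartile scaling moved the median of all genes to −0.12 with EGF and the share of DEGs that were higher from 41.0% to 30.2%, with the 5 chemokine calls as before.

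With the replicate block, 5, 0 and 5 chemokines were called in the 3 comparisons, as without it. The samples share only a number, and the block moved the total of DEGs from 4578 to 4560, from 183 to 186 and from 3564 to 3550. The 183 DEGs with bleogen pB1 ranged from 102 to 436 with a library left out, 102 without untreated replicate 1 or bleogen pB1 replicate 3, 109 without bleogen pB1 replicate 2 and 436 without bleogen pB1 replicate 1. With EGF and a library left out, the lists gave 0 to 2 receptors higher (0 without EGF replicate 3) and 1 to 2 lower, 9 to 11 NF-κB genes higher and 1 to 2 lower, 0 to 1 further chemokines higher and 4 to 5 lower, and 2 to 4 decay regulators higher, 2 without untreated replicate 1. Upper-quartile scaling left 1 decay regulator higher and 2 lower. With no count filter 2 receptors were higher and 3 lower with EGF, and at least 10 counts in every library left 0 further chemokines called. Depth limits CXCL2, CXCL3, CXCL11 and CCL20, which had at most 18 counts in any library.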

Other observations

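Among the further chemokines, 5 genes fell with EGF, each chosen for mention after its values were seen. Each was tested through the groups where it is higher. CCL2, an attractant of monocytes, had 72, 86 and 51 counts in untreated, 5, 4 and 3 in EGF-treated and 53, 63 and 71 in bleogen pB1-treated libraries, with a log2 fold change of −4.05 with EGF (SE 0.34, edgeR adjusted p = 6.1e-07). CCL17, a ligand of CCR4, had 46, 35 and 39 counts in untreated and 3, 9 and 12 in EGF-treated libraries (−2.27, SE 0.35, edgeR adjusted p = 8.4e-05). CX3CL1, a membrane-bound chemokine, had 10, 12 and 11 against 2, 4 and 6 counts (−1.40, SE 0.42, edgeR adjusted p = 0.0096), and CCL26, an attractant of eosinophils, 8, 12 and 10 against 0, 4 and 5 (−1.67, SE 0.60, edgeR adjusted p = 0.025). CCL28, an epithelial chemokine and ligand of CCR10, had 17, 26 and 29 counts in untreated, 42, 36 and 34 in bleogen pB1-treated and none in the EGF-treated libraries, which is at least 7.82-fold lower than untreated against a floor of 3 counts per library. On chromosome 16, CX3CL1 lies 6.3 kb from CCL22 and 19.7 kb from CCL17, and CCL22 had a log2 fold change of 0.47 with EGF.

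The receptors of the ELR chemokines were seen at very low counts. CXCR1 had no counts in untreated, 14, 6 and 13 in EGF-treated and 0, 1 and 1 in bleogen pB1-treated libraries. CXCR2 had 2, 1 and 5 counts in untreated, none in EGF-treated and 1, 4 and 2 in bleogen pB1-treated libraries. Neither passed the count filter, and with no filter 2 receptors were called higher and 3 lower with EGF. IL1R2, the decoy receptor of interleukin-1, was listed in no untreated library and had 105, 120 and 136 counts with EGF, at least 41.0-fold higher against the floor of 3 counts per library.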
